A study of Mus musculus with 12 samples.

Results

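The 10 genes described here encode the machinery that carries a cell from G1 into S phase, and were taken by symbol from the 26921 genes of the left ventricle count table. They are the D-type cyclins Ccnd1, Ccnd2 and Ccnd3, the kinases Cdk4, Cdk6 and Cdk2, the kinase inhibitors Cdkn1b, Cdkn1c and Cdkn2c, and the retinoblastoma gene Rb1. Each of the 12 libraries came from the left ventricular RNA of 1 mouse aged 16 weeks, 6 of them WT and 6 their cmGch1 KO littermates. WT mice were Gch1 flox/flox, so that both genotypes carried floxed alleles of Gch1, which encodes GTP cyclohydrolase I, the enzyme that starts tetrahydrobiopterin synthesis. The cmGch1 KO mice were Gch1 flox/flox and in addition heterozygous for Cre recombinase under the promoter of α-MHC, a cardiomyocyte gene, so that Gch1 stayed intact in the other cells of the ventricle. Since no library came from mice with Cre and without floxed alleles, Cre and the loss of Gch1 cannot be told apart in these data. The question asked of these libraries was whether the genes at the core of this machinery differed between the genotypes, and how they varied among the mice of each.

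In proliferating cells, D-type cyclins bind CDK4 or CDK6, and these kinases, followed by CDK2 with cyclin E, phosphorylate the retinoblastoma protein so that E2F transcription factors are released and DNA replication genes are switched on. The inhibitors act at different points: the product of Cdkn2c binds CDK4 and CDK6 in place of the cyclin, while those of Cdkn1b and Cdkn1c bind assembled cyclin and kinase complexes. Adult cardiomyocytes have largely left the cell cycle, although the ventricle continues to express most of these genes, and D-type cyclins have also been studied in cardiomyocyte growth without division.

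Gch1 was lower in every cmGch1 KO library, with 9.32, 10.7 and 12.2 cpm (counts relative to the total of the library, scaled by TMM) as lowest, mean and highest value in WT and 3.94, 5.51 and 6.35 in cmGch1 KO (log2 fold change -0.96, SE 0.11, edgeR adjusted p = 0.000688). Totals lay between 19921398 and 37917806 counts per library. Replicates 2 and 3 of the cmGch1 KO group stood apart from the other 10 libraries. Xist reached 87.1 and 99.6 cpm in them and at most 0.235 cpm elsewhere, while the level of Uty, Kdm5d, Ddx3y and Eif2s3y, all on the Y chromosome, summed to 0 cpm in them and 168 to 193 cpm elsewhere. Mitochondrial genes held 14.9% and 16.1% of the counts of these 2 libraries and 18.3% to 22.9% in the others. The labels give no sex. By these genes the 2 libraries read as female and the other 10, with all 6 WT libraries among them, as male. Sex by these genes was thus not balanced between the genotypes in the main comparison, although the paper describes its mice as sex-matched. The log2 fold change or the adjusted p without these 2 libraries is given wherever they moved the fold change by over 1.5 times or changed a call. The ventricle was rich in transcripts of its labelled tissue: 8 cardiomyocyte markers, among them Myh6 and Tnnt2, summed to between 56600 and 66380 cpm.

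All 10 genes passed the filter of over 3 cpm in at least 6 libraries, and none of them passed an edgeR adjusted p of 0.05 between the genotypes. The same test called 1.12% of the 11225 tested genes, 0.677% (76 genes) higher and 0.445% (50 genes) lower in cmGch1 KO. The Wald test of DESeq2, which called 3.32% of all genes, called 2 of the 10, Ccnd2 (adjusted p = 0.00747) and Ccnd3 (adjusted p = 0.0114), and edgeR with scaling by library size alone, which called 1.35%, called Ccnd2 (adjusted p = 0.0311). At an unadjusted p under 0.05, 3 members were higher in cmGch1 KO, Ccnd2, Ccnd3 and Cdk6, and 0 were lower, against 7.01% of all tested genes higher, 4.51% lower and 11.5% in either direction. The median log2 fold change was 0.015 over the 10 members and -0.0095 over all tested genes. For no member were the levels of the 6 cmGch1 KO libraries all above or all below those of the 6 WT libraries, a separation seen in 1.87% of the tested genes.

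**Figure D1:**
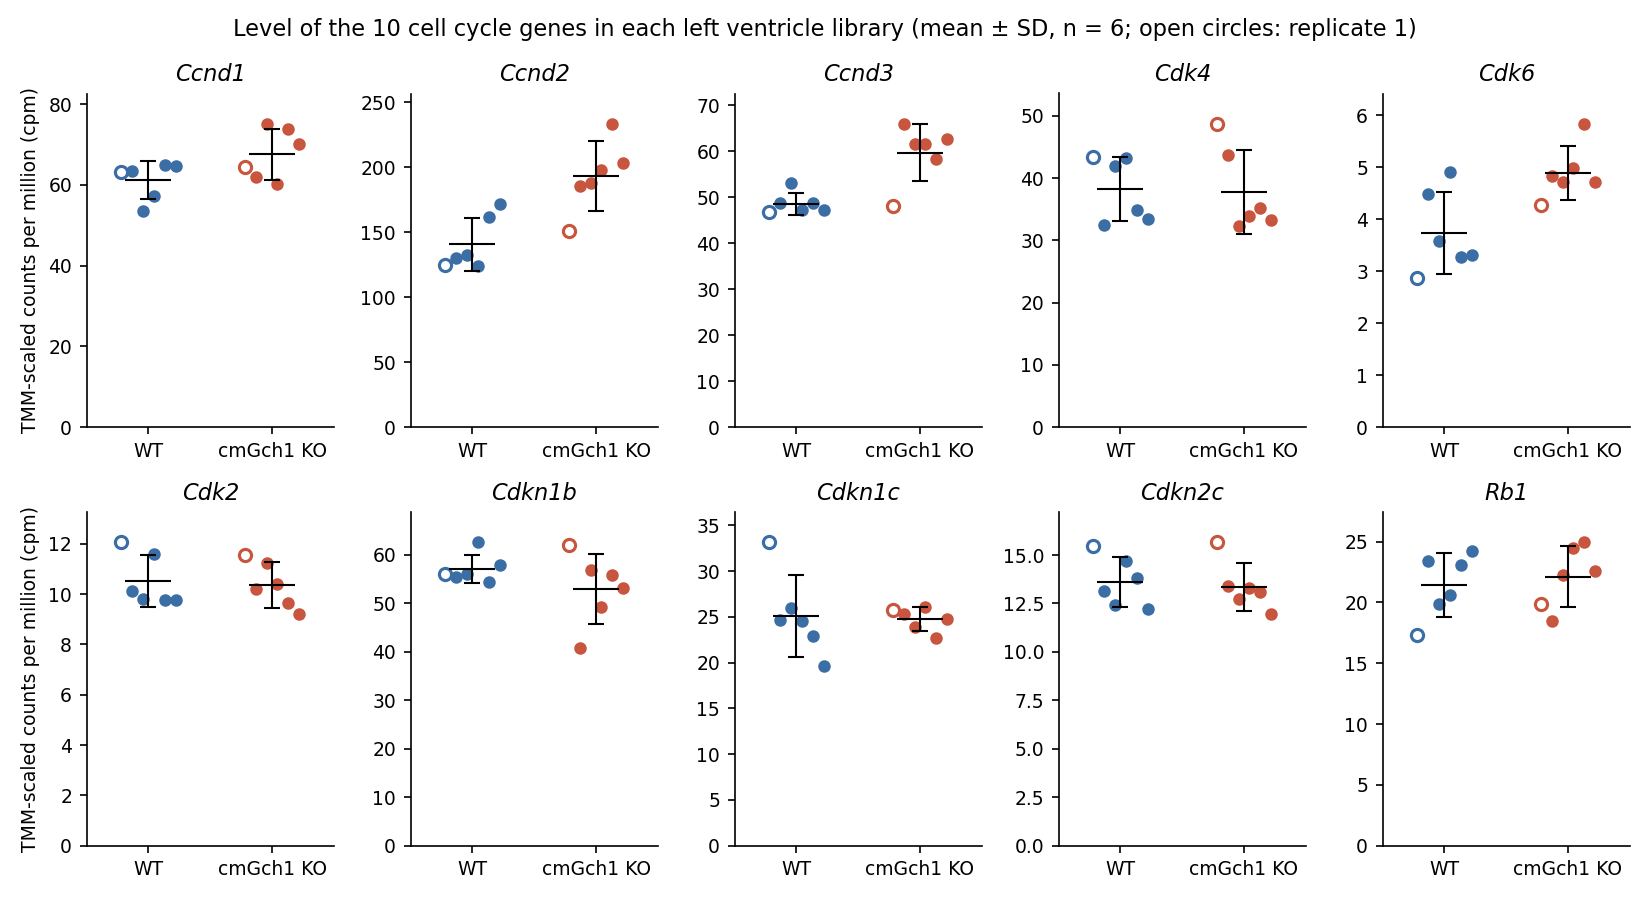
Level of each of the 10 genes in every library, in TMM-scaled cpm on a vertical axis that starts at 0, with the mean and SD of each genotype (n = 6); open circles mark replicate 1 of each genotype. Ccnd2 and Ccnd3 lie above every WT library in 5 of the 6 cmGch1 KO libraries, the exception being replicate 1. The 2 genotypes overlap for Cdk4, Cdk2 and the 3 inhibitors, although for Cdkn1b 3 cmGch1 KO libraries lie below every WT library.

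Among the D-type cyclins, the regulatory subunits through which growth signals reach the kinases, Ccnd2 had the highest mean level and Ccnd3 the lowest. Per kb of exon, the WT mean was 15.0 cpm for Ccnd2 (SD 2.18), 13.0 for Ccnd1 (SD 0.995) and 5.54 for Ccnd3 (SD 0.270), n = 6 each. The WT ranges of Ccnd2 (13.2 to 18.2 cpm per kb) and Ccnd1 (11.4 to 13.8) overlapped, whereas Ccnd3 (5.33 to 6.05) lay below both.

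Ccnd2, a D-type cyclin known to drive cell cycle entry of cardiomyocytes when overexpressed, lies on chromosome 6 (127125162 to 127152193, minus strand, GRCm38). Its level had a lowest, median and highest value of 124, 131 and 172 cpm in WT and of 151, 193 and 233 cpm in cmGch1 KO. In 5 of 6 cmGch1 KO libraries Ccnd2 was above every WT library, and replicate 1, the lowest, lay inside the WT range. The means were 141 ± 20.5 and 193 ± 26.8 cpm (SD, n = 6; exact permutation test, two-sided, p = 0.00649, unadjusted). The fitted log2 fold change was 0.46 (SE 0.11, 95% interval 0.22 to 0.69), that is 1.37-fold, with an edgeR p of 0.000902 and an adjusted p of 0.0675. With cmGch1 KO replicate 1 left out, the log2 fold change was 0.52 and the adjusted p 0.0185, and with WT replicate 6 left out they were 0.52 and 0.0364, in fits that called 1.9% and 0.909% of all tested genes. Without the 2 libraries with high Xist the log2 fold change was 0.49 with an adjusted p of 0.234, over 4 cmGch1 KO libraries.

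Ccnd3, a D-type cyclin found in many differentiated tissues, lies on chromosome 17 (47505051 to 47599691, plus strand). WT libraries covered a narrow range, with 46.7, 47.9 and 53.1 cpm as lowest, median and highest value, and cmGch1 KO libraries had 48.2, 61.5 and 65.9 cpm. Again 5 of 6 cmGch1 KO libraries were above every WT library, and again replicate 1, at 48.2 cpm, was the one inside the WT range. The means were 48.6 ± 2.36 and 59.7 ± 6.14 cpm (SD, n = 6; exact permutation test, two-sided, p = 0.00866, unadjusted). The log2 fold change was 0.30 (SE 0.075, 95% interval 0.14 to 0.46), 1.23-fold, with an edgeR p of 0.00143 and an adjusted p of 0.0885. Leaving out cmGch1 KO replicate 1 gave 0.35 with an adjusted p of 0.00638, and leaving out the 2 libraries with high Xist gave 0.25 with an adjusted p of 0.455.

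Ccnd1, the D-type cyclin most closely tied to growth factor signalling, lies on chromosome 7 (144929931 to 144939925, minus strand). Its lowest, median and highest levels were 53.5, 63.4 and 64.8 cpm in WT and 60.1, 67.3 and 75.1 cpm in cmGch1 KO. The groups overlapped in 3 of the 6 cmGch1 KO libraries, and the difference of 0.14 in log2 fold change (SE 0.076, 95% interval -0.020 to 0.31) had an edgeR adjusted p of 0.523. Whether Ccnd1 differed in its response from Ccnd2 was not tested.

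**Figure D2:**
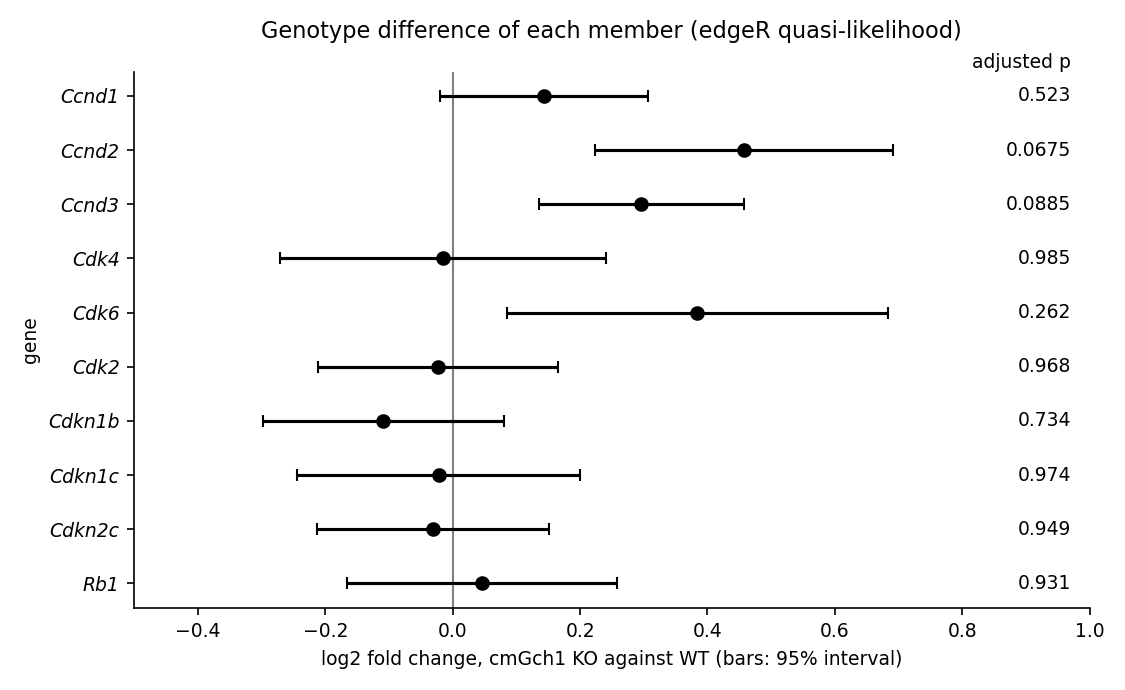
Fitted log2 fold change of each member between cmGch1 KO and WT, with its 95% interval as a bar and the adjusted p at the right (edgeR quasi-likelihood test over 11225 genes). The intervals of Ccnd2, Ccnd3 and Cdk6 lie above 0 before adjustment, and those of the other 7 genes include 0.

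Expressed as shares of their summed level per kb of exon, which do not depend on how libraries were scaled to each other, the D-type cyclins kept the order Ccnd2, Ccnd1, Ccnd3 in 11 of the 12 libraries. Ccnd2 held 44.5% ± 2.94 (SD, n = 6) of the sum in WT and 49.1% ± 2.76 in cmGch1 KO, with 3 cmGch1 KO libraries above the whole WT range of 41.4% to 48.8%. Ccnd1 held 38.9% ± 2.37 and 34.5% ± 2.89, with 4 cmGch1 KO libraries below the whole WT range of 36.1% to 42.0%. The share of Ccnd3 was 16.6% ± 1.70 and 16.4% ± 1.51. WT replicate 1 was the exception to the order, with 42.0% for Ccnd1 and 41.4% for Ccnd2. The summed level of the 3 genes was 33.5 ± 2.76 cpm per kb in WT and 41.7 ± 3.97 in cmGch1 KO, where 5 of 6 libraries exceeded every WT library and replicate 1, at 35.2, did not. These shares are descriptions of mRNA and carry no test, and since they add up to 100% they do not vary independently.

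No stretch of 50 bases was shared between the annotated transcripts of any 2 of the 10 members, but transcripts of other genes did share such stretches. For Ccnd3, 5.39% of the 50-base stretches of its annotated transcripts also occurred elsewhere, most of them in Bysl, which overlaps its end on the opposite strand and was counted at 30.1 to 48.4 cpm (3.31%), and in the processed pseudogene Ccnd3-ps (1.52%), which was counted at 0 to 0.183 cpm. For Ccnd2 the share was 6.31%, with 3.44% in Gm43126, which was not among the counted genes, and 2.87% in the antisense gene 9330179D12Rik at 0.0865 to 1.07 cpm. For Ccnd1, 21.6% lay in LTO1 on the opposite strand at 18.3 to 22.5 cpm. The largest share was that of Cdkn1c, 24.9%, which lay in Gm44732, a gene not among those counted. The libraries were stranded but the strand setting of the counting was not given in the sources used here, so that reads of a gene and its antisense partner cannot be told apart.

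Promoter sequences are shown for the members whose values are contrasted most, Ccnd3 and Cdk6 with unadjusted p under 0.05 and Cdk4 without. The promoter sequences used here, from RefSeq (GRCm38.p6), were matched to 6 of the 10 members (Ccnd3, Cdk4, Cdk6, Cdk2, Cdkn1b and Cdkn2c), and promoters of Ccnd1, Ccnd2, Cdkn1c and Rb1 were not analysed here. Each run gives the 250 bases before a transcription start, 5′ to 3′ on the strand of the gene, with motif matches in capitals: the GC box GGGCGG, bound by SP family factors, and the E-box CACGTG, bound by MYC and related factors, each on both strands. The Ccnd3 windows are chr17:47504801-47505050 and chr17:47593217-47593466, the Cdk4 window is chr10:127063285-127063534 and the Cdk6 window is chr5:3343643-3343892, all on the plus strand.
Ccnd3, upstream start: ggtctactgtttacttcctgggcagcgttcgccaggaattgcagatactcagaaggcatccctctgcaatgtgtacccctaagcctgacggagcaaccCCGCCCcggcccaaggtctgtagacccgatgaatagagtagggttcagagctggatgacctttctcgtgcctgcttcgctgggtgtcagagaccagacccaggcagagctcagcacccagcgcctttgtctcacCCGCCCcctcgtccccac
Ccnd3, downstream start: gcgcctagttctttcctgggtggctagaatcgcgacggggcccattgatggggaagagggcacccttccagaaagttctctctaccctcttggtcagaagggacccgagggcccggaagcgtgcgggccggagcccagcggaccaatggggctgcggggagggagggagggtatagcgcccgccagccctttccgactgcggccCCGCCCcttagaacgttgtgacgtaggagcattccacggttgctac
Cdk4: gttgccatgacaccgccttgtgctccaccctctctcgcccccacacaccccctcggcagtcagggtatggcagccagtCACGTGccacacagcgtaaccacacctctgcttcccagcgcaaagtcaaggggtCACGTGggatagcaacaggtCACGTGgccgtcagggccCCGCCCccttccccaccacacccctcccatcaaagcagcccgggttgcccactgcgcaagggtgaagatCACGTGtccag
Cdk6: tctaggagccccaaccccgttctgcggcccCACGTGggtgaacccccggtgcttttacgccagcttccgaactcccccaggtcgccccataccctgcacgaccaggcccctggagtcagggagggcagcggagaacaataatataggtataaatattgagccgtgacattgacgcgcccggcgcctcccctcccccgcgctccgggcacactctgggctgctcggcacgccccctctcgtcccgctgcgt
The upstream Ccnd3 window held 2 GC boxes and the downstream one 1, and neither held an E-box. The Cdk4 window held 4 E-boxes and 1 GC box, and the Cdk6 window 1 E-box and 0 GC boxes. Of the 32851 windows of the same length in the table, 32.7% held a GC box, 6.02% an E-box and 0.0213% (7 windows) 4 or more E-boxes. The E2F motifs TTTGGCGC, TTTCCCGC, TTTCGCGC and TTTGCCGC, present in 1.86% of all windows, were matched in 1 of the 8 member windows, that of Cdk2. The motifs TGACGTCA (CRE, 1.55%) and TGANTCA (AP-1, 6.75%) were matched in none of the 8. A match describes the letters and does not show binding.

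The kinases that D-type cyclins activate differed widely in level. Cdk4 had a WT mean of 11.8 ± 1.60 cpm per kb of exon and Cdk6 of 0.267 ± 0.0566 (SD, n = 6), so that Cdk6 made up 2.25% ± 0.549 of their sum in WT and 2.99% ± 0.626 in cmGch1 KO. In 4 of 6 cmGch1 KO libraries this share was above the WT range of 1.51% to 3.11%.

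Cdk6 lies on chromosome 5 (3341485 to 3531008, plus strand). Its counts were low, between 72 and 176 per library, which limits the precision of its value. The lowest, median and highest levels were 2.87, 3.44 and 4.91 cpm in WT and 4.27, 4.77 and 5.83 cpm in cmGch1 KO. The cmGch1 KO libraries were all above the WT median, and 2 of them exceeded every WT library. The log2 fold change was 0.38 (SE 0.14, 95% interval 0.085 to 0.68) with an edgeR p of 0.0154 and an adjusted p of 0.262, and the exact permutation test gave p = 0.0216, two-sided and unadjusted. Without the 2 libraries with high Xist the log2 fold change was 0.40 with an adjusted p of 0.596.

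Cdk4 lies on chromosome 10 (127063534 to 127067920, plus strand). Its levels fell into an upper and a lower set within both genotypes. WT replicates 1, 3 and 4 and cmGch1 KO replicates 1 and 2 had 41.9 to 48.7 cpm, and the other 7 libraries had 32.3 to 35.2 cpm. The means were 38.2 ± 5.18 cpm in WT and 37.9 ± 6.75 in cmGch1 KO, the log2 fold change was -0.015 (SE 0.12), and its 95% interval ran from -0.27 to 0.24 (0.829-fold to 1.18-fold), so that changes of this size were within the error of these data. Of the 50-base stretches of Cdk4, 17% also occurred in Tspan31, which overlaps it on the opposite strand and was counted at 26.0 to 37.7 cpm.

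Cdk2, the kinase that acts with cyclin E at the entry into S phase, lies on chromosome 10 (128697939 to 128705031, minus strand). It was expressed at 9.77 to 12.1 cpm in WT against 9.20 to 11.5 in cmGch1 KO. The log2 fold change was -0.023 (SE 0.088, 95% interval -0.21 to 0.17, edgeR adjusted p = 0.968). The highest values were those of replicate 1 in both genotypes.

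**Figure D3:**
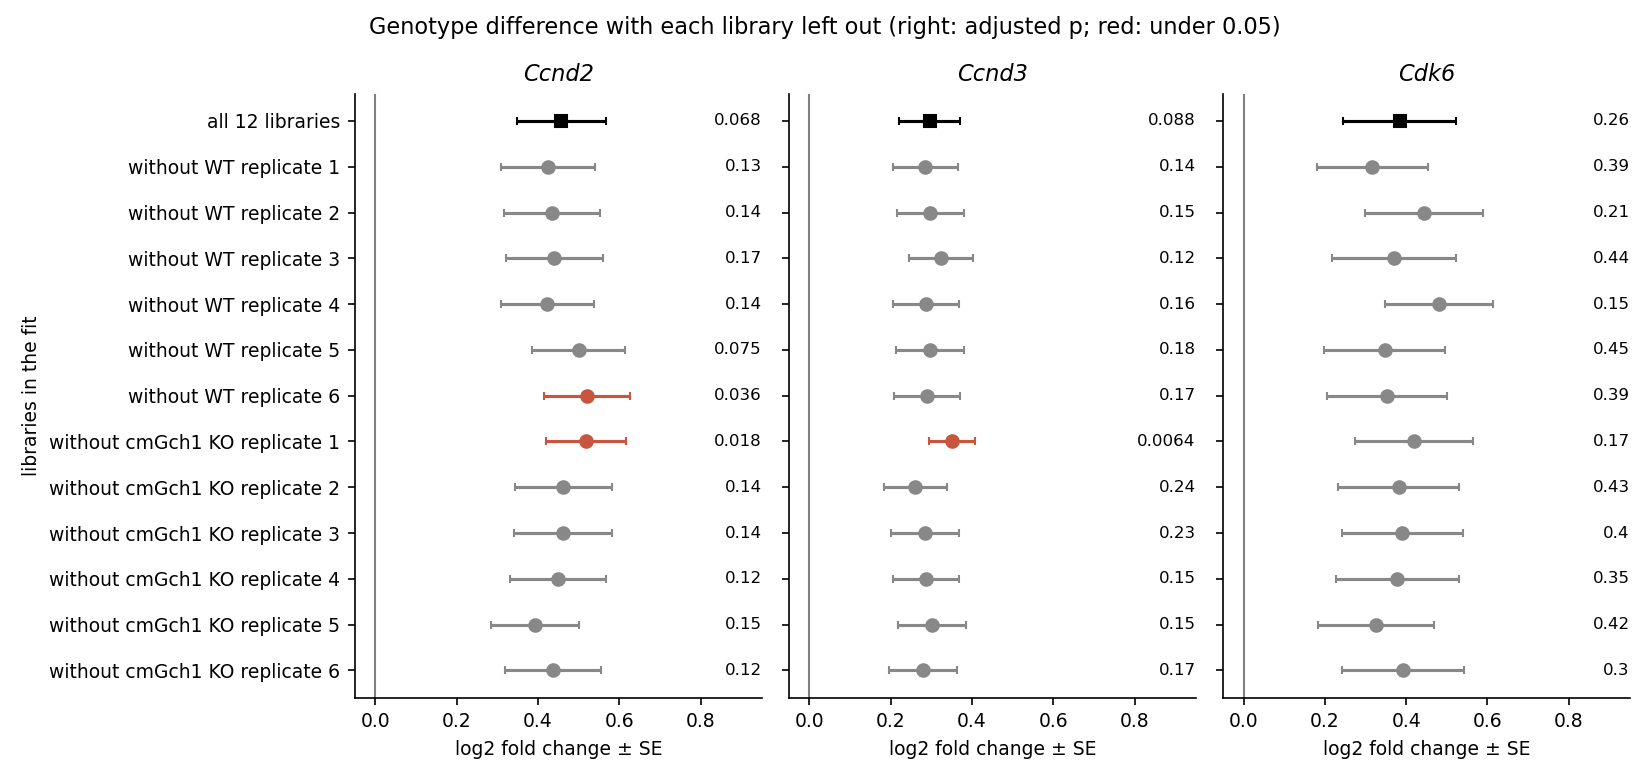
Log2 fold change of Ccnd2, Ccnd3 and Cdk6 with all 12 libraries (squares) and with each library left out in turn (circles), bars showing the SE and numbers at the right the adjusted p; red marks an adjusted p under 0.05. The fold changes stay positive in every fit, between 0.39 and 0.52 for Ccnd2, 0.26 and 0.35 for Ccnd3 and 0.32 and 0.48 for Cdk6, and Ccnd2 passes 0.05 without WT replicate 6 or cmGch1 KO replicate 1 and Ccnd3 without cmGch1 KO replicate 1.

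Per kb of exon in WT, Cdkn1b (12.6 cpm) and Cdkn1c (12.3) were close to Ccnd1 (13.0), and Cdkn2c (5.07) was close to Ccnd3 (5.54) and below the other D-type cyclins. None of these inhibitors passed the test. Cdkn1b, which encodes the CDK2 inhibitor p27, lies on chromosome 6 (134920401 to 134925513, plus strand) and had 54.5, 56.2 and 62.6 cpm as lowest, median and highest WT level and 40.8, 54.5 and 62.0 cpm in cmGch1 KO. Its spread was wider in cmGch1 KO, with an SD of 7.30 cpm against 2.91 in WT. The value of 40.8 cpm belonged to replicate 2 and that of 62.0 cpm to replicate 1. In 3 of the cmGch1 KO libraries Cdkn1b was below every WT library. The log2 fold change was -0.11 (SE 0.088, 95% interval -0.30 to 0.080, edgeR adjusted p = 0.734). It was -0.050 without cmGch1 KO replicate 2, -0.052 without both libraries with high Xist and -0.037 with scaling by library size alone.

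Cdkn1c, the imprinted gene of the inhibitor p57, lies on chromosome 7 (143458339 to 143461050, minus strand). Here the wider spread was in WT, from 19.6 cpm in replicate 6 to 33.1 cpm in replicate 1, while the cmGch1 KO libraries stayed between 22.7 and 26.1 cpm. The log2 fold change was -0.022 (SE 0.10, 95% interval -0.24 to 0.20), and it was 0.073 without WT replicate 1. Cdkn2c, which encodes the CDK4 and CDK6 inhibitor p18, lies on chromosome 4 (109660876 to 109667189, minus strand), and had 12.2 to 15.5 cpm in WT against 11.9 to 15.7 in cmGch1 KO. Its log2 fold change was -0.031 (SE 0.085, 95% interval -0.21 to 0.15). As for Cdk2 and Cdk4, replicate 1 was the highest library of its genotype for Cdkn2c in both groups.

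Rb1, the substrate on which the kinases converge, lies on chromosome 14 (73183673 to 73325822, minus strand). Its lowest, median and highest levels were 17.4, 21.8 and 24.3 cpm in WT and 18.5, 22.4 and 24.9 cpm in cmGch1 KO, and the log2 fold change was 0.046 (SE 0.099, 95% interval -0.17 to 0.26, edgeR adjusted p = 0.931). WT replicate 1 held the lowest value. Of its 50-base stretches, 12% also occurred in Rcbtb2 or Lpar6 on the opposite strand.

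Set against each other per kb of exon, the 3 inhibitors together were at a level slightly below that of the 3 D-type cyclins. The log2 ratio of the inhibitors to the cyclins was -0.16 ± 0.22 (SD, n = 6) in WT, between -0.47 and 0.10, and -0.53 ± 0.21 in cmGch1 KO. In 5 of 6 cmGch1 KO libraries the ratio, between -0.74 and -0.52, was below every WT library, and in replicate 1 it was -0.13. The ratio is one of mRNA levels and is given as a description. It leaves out the inhibitor gene Cdkn1a, which is not a member and is described below. Cdkn1a had a mean of 13.5 ± 6.72 cpm per kb in WT and 23.3 ± 8.55 in cmGch1 KO (SD, n = 6), a level similar to or above that of each inhibitor in the ratio. A ratio that includes Cdkn1a was not computed, so the values describe these 3 inhibitors alone.

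**Figure D4:**
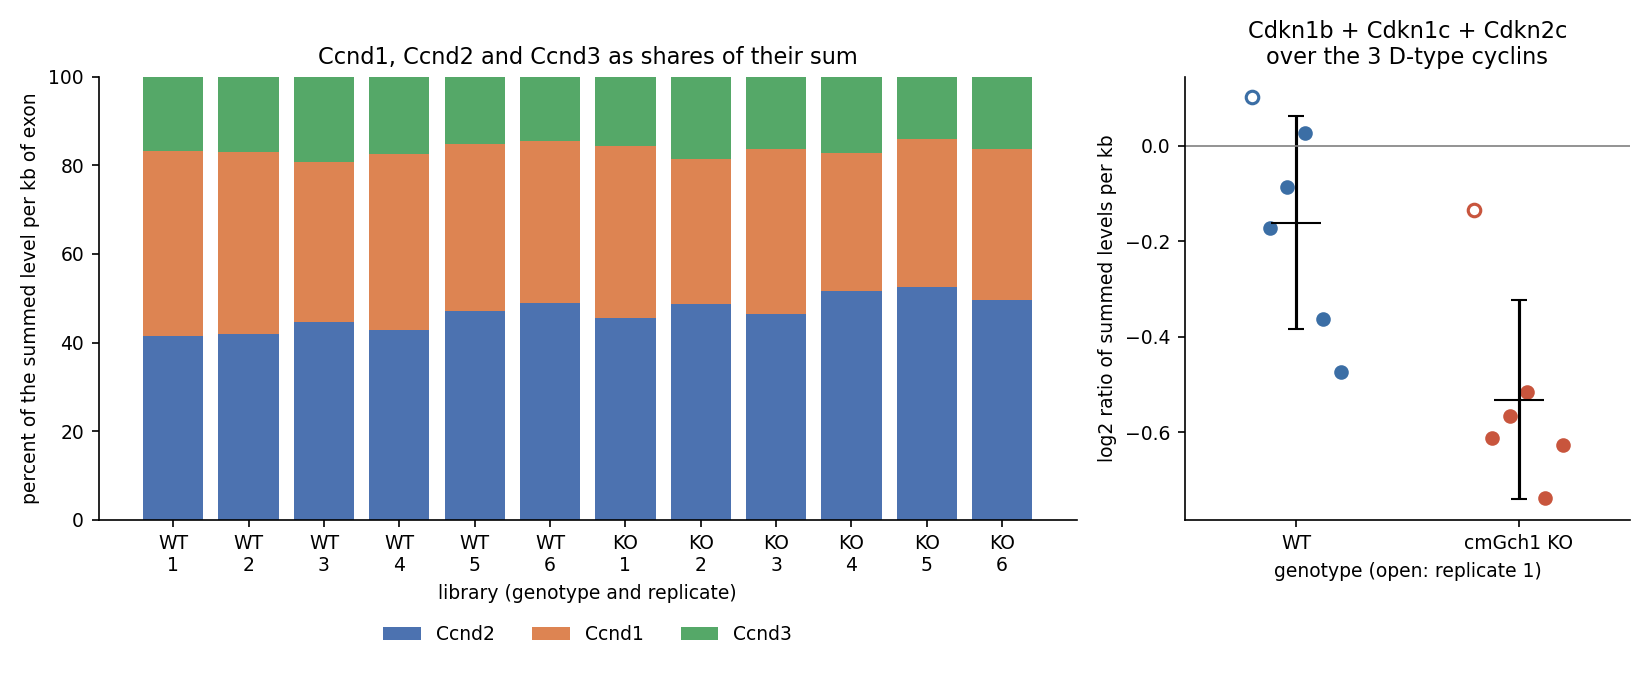
Left, the share of Ccnd2, Ccnd1 and Ccnd3 in their summed level per kb of exon, as stacked bars from 0 to 100% for each of the 12 libraries. Right, the log2 ratio of the summed inhibitors to the summed D-type cyclins by genotype, with mean and SD (n = 6) and open circles for replicate 1. The ratio, which covers Cdkn1b, Cdkn1c and Cdkn2c and leaves out Cdkn1a, was below every WT library in 5 of 6 cmGch1 KO libraries.

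In the order of WT levels per kb of exon, Ccnd2, Ccnd1, Cdkn1b, Cdkn1c and Cdk4 came first, with means from 15.0 down to 11.8 cpm per kb and ranges that overlapped between neighbours. Ccnd3 and Cdkn2c followed with overlapping ranges, at 5.54 and 5.07 cpm per kb, separated from Cdk4 above. Rb1 at 3.56, Cdk2 at 1.69 and Cdk6 at 0.267 cpm per kb were each separated from the next. The order in cmGch1 KO differed only among Cdkn1b, Cdkn1c and Cdk4, whose WT ranges overlapped. Replicate 1 was the cmGch1 KO library with the most members inside the WT range, 8 of 10, against 4 to 6 in the other 5 cmGch1 KO libraries. The share of all tested genes inside the WT range was not computed, so this count is not read as a trait of the members. The TMM factor of replicate 1, 0.970, also lay inside the WT range of 0.949 to 0.992, against 1.01 to 1.09 in the other 5. Replicate 1 was also the library with the lowest Gch1, at 3.94 cpm against 5.40 to 6.35 cpm in the other cmGch1 KO libraries. Without the 2 libraries with high Xist the small log2 fold changes of 4 members also shifted, to -0.044 for Cdk2, -0.014 for both Cdkn1c and Cdkn2c and 0.11 for Rb1, with adjusted p of 0.978 to 0.998.

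Across the rest of the pathway, 88 genes in 5 lists were followed, and 54 of them were tested. Of these, 1 passed an adjusted p of 0.05, Myc, and 5 were higher and 2 lower at an unadjusted p under 0.05, that is 13% against 11.5% of all tested genes. The share was thus near the background. Myc and Mki67, both among the genes that were higher, passed the filter mainly through cmGch1 KO, the group in which they were higher.

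Myc, a transcription factor that drives growth and cell cycle entry, was low, with 47 to 186 counts per library. It had 2.10, 2.39 and 3.49 cpm as lowest, median and highest level in WT and 3.58, 4.52 and 7.28 cpm in cmGch1 KO, and the groups did not overlap. Most WT libraries were under the 3 cpm of the filter and all cmGch1 KO libraries above it. Myc was thus tested through the group in which it was higher. The log2 fold change was 0.90 (SE 0.19, edgeR adjusted p = 0.0399). This call was close to the threshold: the adjusted p was between 0.0313 and 0.105 when single libraries were left out, and over 0.05 without WT replicate 2, 3, 5 or 6 or cmGch1 KO replicate 1, 3, 5 or 6. Without the 2 libraries with high Xist the adjusted p was 0.0563 and the log2 fold change 1.04. In the deposited normalized values the difference was 0.47 (limma adjusted p = 0.0453).

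The other genes of the G1 to S step gave few differences. Of 16 listed, 8 were tested, with a median log2 fold change of 0.11. Ccne1, Ccna1, Ccna2, Cdkn2a and Cdkn2b were under the filter, with means of at most 1.43 cpm in either genotype. Cdkn1a, which encodes the inhibitor p21 and is named here after its values were seen, ranged from 32.3 to 94.5 cpm in WT against from 51.7 to 124 in cmGch1 KO (log2 fold change 0.79, SE 0.29, edgeR adjusted p = 0.267). WT replicate 6, at 94.5 cpm, lay above 3 of the 6 cmGch1 KO libraries, and without it the log2 fold change was 1.09 and the adjusted p 0.0463. The 2 libraries with high Xist, at 124 and 99.6 cpm, were among the 3 highest of cmGch1 KO, and without them the log2 fold change was 0.51 (adjusted p = 0.86). Among 10 E2F and DP family genes, 6 were tested and 0 passed. E2f6, a repressor of the family, had 118 ± 10.8 cpm in WT and 103 ± 7.34 in cmGch1 KO (log2 fold change -0.20, adjusted p = 0.252), and Tfdp2, a dimerisation partner, had a log2 fold change of -0.24 (adjusted p = 0.342) and Tfdp1 of 0.10 (adjusted p = 0.723), or 0.066 without the 2 libraries with high Xist. E2f1 was under the filter at 1.06 cpm in WT against 1.69 cpm in cmGch1 KO.

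DNA replication genes, the classical targets of E2F, had WT means from 0.687 cpm for Cdc6 to 34.2 cpm for Pcna. Of 16 listed, 11 were tested and 0 passed, with 9 fold changes above 0 and 2 below and a median of 0.11. Mcm5, a subunit of the replicative helicase, had 3.12 to 4.27 cpm in WT against 3.69 to 6.81 in cmGch1 KO (log2 fold change 0.45, SE 0.16, edgeR adjusted p = 0.25). The helicase subunits Mcm6 and Mcm3 followed with 0.22 and 0.27 (adjusted p = 0.474 and 0.515).

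Of 20 genes of G2, mitosis and proliferation, 4 were above the filter and 0 passed the test. Mki67, a marker of cycling cells, had 2.06 to 3.52 cpm in WT against 3.08 to 3.80 in cmGch1 KO (log2 fold change 0.39, SE 0.13, adjusted p = 0.216), and Cenpf, a kinetochore protein gene, had 15.2 to 26.7 and 21.0 to 32.2 cpm (0.45, SE 0.16, adjusted p = 0.231). The WT median of Mki67 was 2.51 cpm, so that it passed the filter of 3 cpm mainly through cmGch1 KO, where it was higher. For genes near 3 cpm such a filter favours those higher in 1 group, and the median of this list shares that limit. Wee1, a kinase that holds back mitotic entry, had a log2 fold change of -0.41 (adjusted p = 0.447). It was at 4.74 and 4.41 cpm in the 2 libraries with high Xist, 7.89 to 11.1 cpm in the other cmGch1 KO libraries and 8.22 to 12.3 cpm in WT, and the log2 fold change without those 2 was -0.16 (adjusted p = 0.967). The mitotic kinase Cdk1 was under the filter, with a mean of 0.926 cpm in WT against 0.991 cpm in cmGch1 KO, and no gene of this list under the filter exceeded 3.80 cpm in any library.

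The list of transcriptional and atypical CDKs and their cyclins gave 0 calls. Of 26, 25 were tested, 8 with fold changes above 0 and 17 below, the median was -0.036, and 0 had an unadjusted p under 0.05 by edgeR. Ccny, Cdk16 and Ccng2 had the lowest p, with log2 fold changes of -0.10, -0.099 and -0.25 (adjusted p = 0.49, 0.501 and 0.534). Ccng2 was lowest in the 2 libraries with high Xist, at 15.1 and 19.98 cpm, and had a log2 fold change of -0.11 without them (adjusted p = 0.979). In this list and those of the E2F family, DNA replication and mitosis, 0 genes were called by DESeq2 or by limma on the deposited normalized values.

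**Figure D5:**
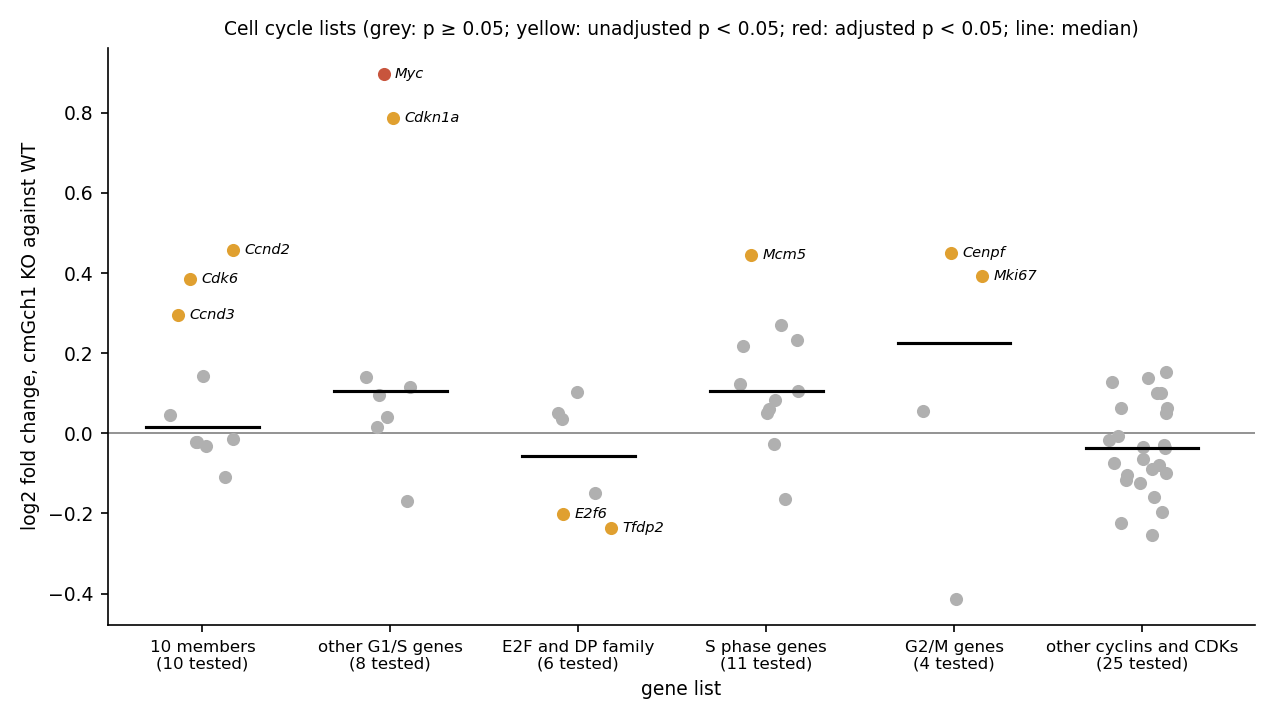
Log2 fold change of every tested gene in the 10 members and the 5 further lists, 1 point a gene, with the median of each list as a line; red marks an adjusted p under 0.05 and yellow an unadjusted p under 0.05. Myc is the only red point, and medians lie between -0.057 and 0.23. Myc and Mki67 passed the filter mainly through their cmGch1 KO levels.

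By the root mean square difference of centred log2 cpm over the 12 libraries, the genes most like Ccnd2 were Hk1, Taok3 and Strip2, at 0.11 to 0.12, against a spread of 0.29 of Ccnd2 about its own mean. Those most like Ccnd3 were Rangap1, Gtf2f1 and Ncbp1, at 0.062 to 0.074 against 0.18, and those most like Cdk6 were Pygl, Prkcd and Dsel, at 0.15 to 0.16 against 0.29. These likenesses include the difference between the genotypes and the scaling that the genes of a library share.

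Marker genes of the cells that the ventricle holds were read beside the members. All 8 macrophage markers had fold changes above 0, 7 of them with an unadjusted p under 0.05 and 0 with an adjusted p under 0.05, and their summed level was 243 to 392 cpm in WT against 324 to 467 in cmGch1 KO, with none of the 8 at 0 in any library. The highest sum, 467 cpm, was that of cmGch1 KO replicate 1. The sum is weighted to the most abundant of the 8, Lyz2, with a WT mean of 133 ± 40.7 cpm (SD) and an unadjusted edgeR p of 0.192. Ptprc, a gene of all leukocytes, had 5.62 to 7.84 cpm in WT against 8.62 to 10.4 in cmGch1 KO (log2 fold change 0.55, edgeR adjusted p = 0.0116, and 0.0636 without the 2 libraries with high Xist), while Cd3e, a T cell gene, was under the filter. Acta2, a gene of smooth muscle and of activated fibroblasts, had a log2 fold change of 0.66 (adjusted p = 0.00672), but the other 7 genes of the pericyte and smooth muscle list gave 0 calls, with Tagln at -0.40 and Myh11 at -0.24. All 8 fibroblast markers had fold changes above 0, 2 of them with an unadjusted p under 0.05, and their sum was 869 to 1147 cpm in WT against 978 to 1227 in cmGch1 KO. The summed cardiomyocyte markers were lower in every cmGch1 KO library (56600 to 60620 cpm) than in any WT library (62720 to 66380 cpm), with 0 of 8 genes past an unadjusted p of 0.05. Of the 8, 7 had fold changes below 0 and 1, Actc1, was above 0 (log2 fold change 0.10). The sum is weighted to the most abundant gene, Myh6, with a WT mean of 23170 cpm. Endothelial markers summed to 824 to 1029 and 888 to 1050 cpm. In RNA from whole ventricle, a different number of cells of a type and a different amount of RNA per cell cannot be told apart, and the part of these markers in the values of Ccnd2, Ccnd3, Cdk6 and Myc was not tested.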

How the data were processed

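Left ventricular RNA of 6 WT and 6 cmGch1 KO mice was analysed, grouped by the genotype in the labels. According to the methods, the authors made stranded paired-end libraries and deposited whole-number counts per Ensembl gene, without normalization, and a table of normalized log2 values that was used as an alternative. HISAT2, SAMtools and the build GRCm38 are named in the submitters' processing notes. Of 26921 genes, 26582 matched GENCODE M21, which gave symbols, coordinates and exon lengths. A filter of over 3 cpm in 6 or more libraries left 11225 genes, which were tested with edgeR 4.0.16 in R 4.3.3 by the quasi-likelihood test with TMM and Benjamini-Hochberg adjustment (FDR 0.05). For this filter alone, cpm were taken relative to the library total without TMM. The script was tested on simulated data. Levels are TMM-scaled cpm, and single members were also tested by exact permutation over 924 splits (smallest possible p 0.00216). Alternatives used DESeq2 1.42.0, limma 3.58.1, other scalings and filters, a replicate block, a sex-linked covariate and the omission of libraries. The members, lists and alternatives were chosen with earlier results of these data known. Genes were named by rule: all members, Gch1, Xist and 4 Y-linked genes, the called genes of each list or else the 3 with the lowest p, and the 3 genes most like each of Ccnd2, Ccnd3 and Cdk6. Markers were named after their values were seen, and a gene of the marker lists is not reported here. A permutation test had been planned for shares and ratios and is not reported, since their genes are the members themselves. Each mouse is 1 library. Between libraries of the same genotype, counts differed by more than sampling noise in all 30 pairs (chi-square of 12.5 to 78.9 per degree of freedom).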

Additional observations from a re-analysis of the deposited data

Results flagged for a closer look

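In 84 groups of 6 values, 7 held 1 library whose gap to its nearest neighbour was large against the range of the group, a pattern that chance gives in about 1 in 20 groups, and 1 of the 7 concerned a member. Ccnd3 was at 53.1 cpm in WT replicate 3, against 46.7 to 48.7 cpm in the other WT libraries. The log2 ratio of the 3 inhibitors to the 3 D-type cyclins was -0.13 in cmGch1 KO replicate 1, against -0.74 to -0.52 in the other cmGch1 KO libraries. The same library was the highest of its group for E2f6 (117 cpm, others 96.5 to 104) and Ccny (133.5 cpm, others 114.9 to 121.4) and the lowest for Ncbp1 (24.9 cpm, others 28.6 to 30.7). Cdkn1a reached 94.5 cpm in WT replicate 6 (others 32.3 to 52.8), and Dsel reached 8.15 cpm in cmGch1 KO replicate 5 (others 5.90 to 6.64).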

How the results depend on the processing

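Fold changes of Ccnd1, Ccnd2, Ccnd3, Cdk6, Cdkn1b and Rb1 kept their direction under the 10 alternatives that use all libraries or omit those with high Xist (9 for Cdk6, which was not tested when cpm over 3 was required in every library, as was Myc). The number of members called was 2 by the Wald test of DESeq2 (Ccnd2 0.46, adjusted p = 0.00747, and Ccnd3 0.30, adjusted p = 0.0114, with 3.32% of all genes called), and 1 by library size alone (Ccnd2 0.53, adjusted p = 0.0311, with 1.35% called). With library size alone Cdk4 (0.060), Cdk2 (0.053), Cdkn1c (0.052) and Cdkn2c (0.042) changed sign, and the median of all genes moved from -0.0095 to 0.066. The replicate numbers follow accession order and the labels used here give no pairing, so the numbers were not taken as pairs. Deviations of libraries with the same number correlated at -0.13 to 0.68, over 0.1 in 3 of 6 pairs, and 5 of 12 libraries correlated best with their own number. These values were not compared with those of a random numbering, so they do not decide whether the numbers are pairs. With the replicate block 1 member was called (Ccnd2 0.46, edgeR adjusted p = 0.0128), with 1.67% of all genes called. Of all tested genes, 116 were higher with library size alone, 218 higher and 155 lower by DESeq2, 76 lower with the block, 40 higher and 24 lower with the sex-linked covariate, and 20 higher and 18 lower without the 2 libraries with high Xist. The 5 lists had 0 called genes with cpm over 3 in every library and without the libraries with high Xist; at unadjusted p under 0.05 they had 10 higher and 0 lower with library size alone, 5 lower by DESeq2, 3 higher with cpm over 3 in every library, 6 lower with the block, 1 lower with the sex-linked covariate or without the libraries with high Xist, and 4 lower by limma. Not dividing by gene length moved the difference in the share of Cdk6 from 0.74 to 2.70 percentage points. The cause of these changes was not tested.

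With single libraries left out, log2 fold changes ranged from 0.39 to 0.52 for Ccnd2, 0.26 to 0.35 for Ccnd3, -0.10 to 0.025 for Cdk4, -0.056 to 0.020 for Cdk2, -0.083 to 0.073 for Cdkn1c, -0.082 to 0.0083 for Cdkn2c and -0.0080 to 0.085 for Rb1. Members called ranged from 0 to 2, all genes from 45 to 116 higher and 30 to 97 lower, most without cmGch1 KO replicate 1, and genes of the 5 lists from 0 to 1 higher, with 1 to 5 lower at unadjusted p under 0.05. Counting precision is limited for Cdk6, Myc and most mitotic genes.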
